A study of Mus musculus with 1 sample.

Results

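Cholesterol leaves a macrophage, or is stored in it, through a small set of genes, and 9 of them were followed across alveolar macrophages (AMs, macrophages of the lung's air sacs). They were chosen by name for their role in cholesterol handling, and all 9 were among the 11918 genes listed. They were the efflux transporters Abcg1 and Abca1, the sterol sensor Nr1h3 (LXRα), the lipid carrier Apoe, the lysosomal proteins Lipa, Npc1 and Npc2, the cholesterol esterifying enzyme Soat1 and the phospholipid remodelling enzyme Lpcat3. The study asked how the histone deacetylase HDAC3 controls AMs, and the library analysed here came from 1 wild-type adult mouse, an Hdac3 fl/fl animal without Cre, of 8 to 12 weeks of age and of FVB/NJ origin backcrossed to C57BL/6 for 10 generations. CD45+CD11c+SiglecF+ lung cells were sorted and run on the 10x Genomics 3′ assay, which counts each captured transcript once by its unique molecular identifier (UMI). With 1 library there was no replicate and no test between animals, so all intervals below are 95% intervals that cover counting error only.

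AMs take up and degrade surfactant, a film of phospholipid and cholesterol, and must dispose of the sterol that remains. Sterol esters are hydrolysed in the lysosome by the acid lipase Lipa, free cholesterol is handed by Npc2 to Npc1 for export from the lysosome, and it is then re-esterified by Soat1 or passed out of the cell by Abcg1 and Abca1 onto lipoproteins and Apoe. Oxysterols activate LXR, which raises Abca1, Abcg1, Apoe, Lpcat3 and the ubiquitin ligase Mylip, while sterol shortage activates SREBP2, which raises the genes of sterol synthesis.

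The library held 2055 cells and 7222978 UMIs, with 1143 to 8603 UMIs per cell and a median of 3278. Markers of AMs were abundant, since Chil3 had a UMI in 100% of cells, Ear2 in 98.8% and Mrc1 in 92.7%, and all 13 listed AM markers were seen in at least 10% of cells. Of 7 markers of interstitial macrophages 4 were listed, with 97 UMIs in all, among them 9 of C1qa and 62 of Pf4. The surfactant gene Sftpc, which AMs should lack, had a UMI in 6.86% of cells (5.81 to 8.04%). This share was taken as a sign of RNA carried over from other cells, and it sets no floor for another gene. In 384 cells mitochondrial transcripts took over 5% of the UMIs.

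In GRCm38 (annotation GENCODE M21), Abcg1 lies on chromosome 17 from 31057675 to 31117988, Abca1 on chromosome 4 from 53030787 to 53159895, and Apoe on chromosome 7 from 19696109 to 19699188. The sequences upstream of Abca1 and Apoe are shown because these genes varied most between cells. Each is the 250 bases before the RefSeq start in GRCm38.p6, on the minus strand, written 5′ to 3′. Capitals mark the E-box CACGTG and a DR4-like match, the arrangement that LXR and its partner RXR are known to bind, searched as the half-site AGGTCA repeated after a gap of 4 bases with at most 3 mismatches in 12, on both strands.
Abca1, chr4:53159896-53160145: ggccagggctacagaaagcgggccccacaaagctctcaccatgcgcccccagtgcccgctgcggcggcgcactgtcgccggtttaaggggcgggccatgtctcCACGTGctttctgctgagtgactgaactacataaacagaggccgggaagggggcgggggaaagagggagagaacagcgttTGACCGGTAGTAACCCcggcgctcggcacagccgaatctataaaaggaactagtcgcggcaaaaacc
Apoe, chr7:19699189-19699438: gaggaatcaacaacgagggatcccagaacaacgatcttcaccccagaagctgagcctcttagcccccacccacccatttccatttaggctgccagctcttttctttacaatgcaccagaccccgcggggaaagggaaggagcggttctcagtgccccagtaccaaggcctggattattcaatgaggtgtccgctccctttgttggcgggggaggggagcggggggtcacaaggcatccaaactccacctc
The DR4-like match lay 67 to 52 bases before the Abca1 start, with 3 mismatches. Of the 7 genes with an entry (Abca1, Nr1h3, Apoe, Npc2, Soat1, Lipa and Lpcat3), Abca1 alone held either motif in this window. A DR4-like match was found in 18.5% of all 32851 windows of this length and CACGTG in 6.02%, so a match here is common and describes letters only.

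Abcg1, which passes cholesterol to lipoprotein particles, dominated the set. It had 8394 UMIs, a level of 11.6 per 10000 UMIs (11.4 to 11.9), rank 120 of all genes, and a UMI in 92.3% of cells (91.1 to 93.4%). Single cells held 0 to 21 Abcg1 UMIs, with a median of 10.7 per 10000. Abca1, which loads lipid-poor apolipoprotein, stood at 0.991 per 10000 (0.920 to 1.07) and was seen in 24.3% of cells, so Abcg1 was 11.7-fold higher (10.9 to 12.7). UMIs of the 3′ assay are 1 per molecule and were not divided by transcript length. Abcg1 alone made up 46.0% of the UMIs of the 9 genes.

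The lysosomal genes came next. Npc2, the soluble sterol carrier, had 5.57 UMIs per 10000 (5.40 to 5.74) and was seen in 79.7% of cells. Lipa reached 2.44 per 10000 in 52.0% of cells, and Npc1, the membrane partner of Npc2, 1.18 per 10000 in 32.8%. Npc2 was therefore 4.73-fold above Npc1 (4.39 to 5.09), although both act in the same transfer step. Soat1, which stores cholesterol as ester, lay between Lipa and Npc1 at 2.1 per 10000 in 49.6% of cells, and Nceh1, an enzyme that hydrolyses these esters in the cytosol, was 1.86-fold above Soat1 (1.75 to 1.98).

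Apoe with 435 UMIs, Lpcat3 with 346 and Nr1h3 with 195 were scarce. Apoe stood at 0.602 per 10000 (0.547 to 0.662), Lpcat3 at 0.479 (0.430 to 0.532) and Nr1h3 at 0.270 (0.233 to 0.311). Nr1h3 was seen in 8.81% of cells (7.62 to 10.1%), an interval that overlaps that of Sftpc. This overlap cannot tell how much Nr1h3 RNA was carried over, and the part of carried-over RNA in its share was not tested. The related receptor Nr1h2 (LXRβ) was at a like level, with a ratio of Nr1h3 to Nr1h2 of 1.10 (0.894 to 1.36). In the order of levels no neighbouring members had overlapping counting intervals.

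**Figure D1:**
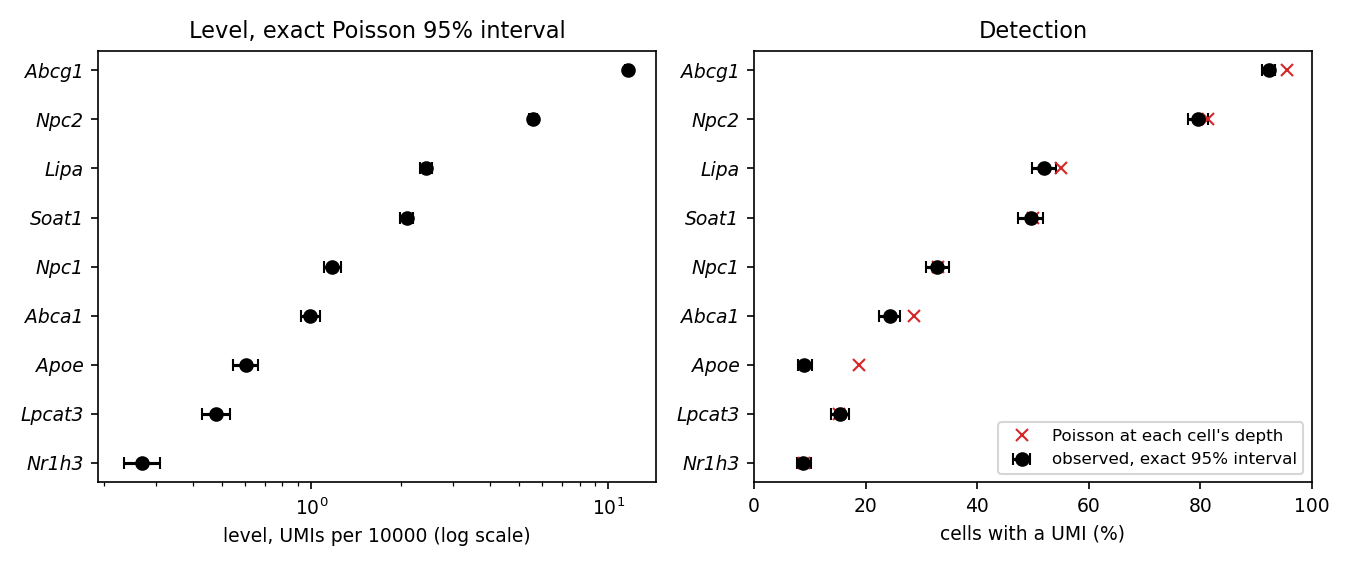
Levels of the 9 genes in UMIs per 10000 on a log axis (left) and share of the 2055 cells with a UMI in percent (right); bars are exact 95% intervals and crosses the share that Poisson counting of an even level would give at each cell's depth. Abcg1 leads at 11.6 per 10000, and Apoe is the gene whose observed share, 9.0%, falls farthest below its cross, 18.8%.

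A gene expressed evenly by all cells would still vary between them through counting alone. The variance beyond Poisson counting, divided by the squared mean (excess variance, whose square root is a coefficient of variation), was 0.0495 for Npc2, below the median of 0.0773 for genes in the same of 20 level bins. Npc1 (0.101), Soat1 (0.107) and Lpcat3 (0.0343) lay at percentiles 50.6, 57.1 and 25.3 of their bins. With every cell thinned to 1801 UMIs the values were 0.114 for Npc2 (percentile 62.6, bin median 0.0867), 0.0146 for Npc1 (25.2), 0.138 for Soat1 (56.2) and 0.298 for Lpcat3 (58.7). Neither form put any of these 4 genes among the most variable of its level, and their order among themselves changed with thinning.

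Abcg1 was more variable, with 0.187 (percentile 81.5, and 78.3 after thinning). Lipa had 0.237 (percentile 84.1), but 0.0911 (percentile 44.6) after thinning. Abca1 was well above its level class, at 1.01 against a bin median of 0.123 (percentile 96.4), and Apoe reached 18.4 against 0.143 (percentile 99.8). Nr1h3, at 0.516, was at percentile 77.3, from 195 UMIs, and at 0.231 in cells with at most 5% mitochondrial content. Thinned values of Abca1 (1.06) and Apoe (18.4) were at percentiles 96.1 and 99.8.

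**Figure D2:**
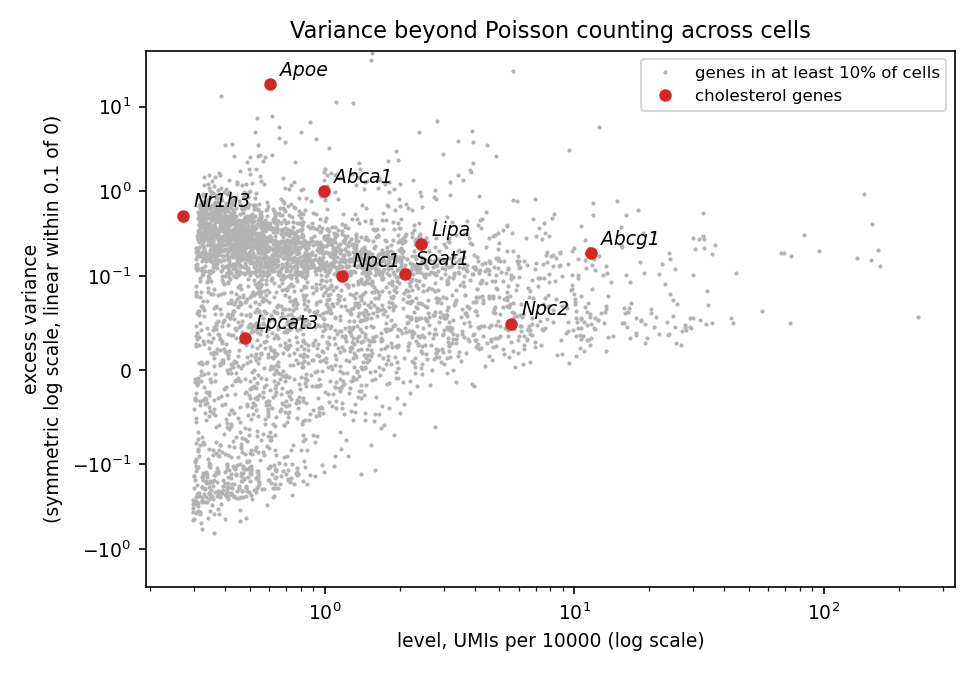
Excess variance across cells (symmetric log axis) against level in UMIs per 10000 (log axis) for genes seen in at least 10% of cells (grey) and the 9 genes (red). Apoe at 18.4 and Abca1 at 1.01 stand above most genes of like level (percentiles 99.8 and 96.4 of their bins). Npc2 lies at 0.0495, which became 0.114 in cells thinned to one depth.

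Apoe, the lipoprotein ligand that accepts effluxed cholesterol, came from few cells. A UMI was found in 185 cells, 9.0% (7.80 to 10.3%), where an even level would have given 18.8%. This share, too, overlaps that of Sftpc in its interval, and the part of carried-over RNA in it was not tested. The highest cell held 27 Apoe UMIs, the next 14 and 12, and the 10 highest cells held 26.2% of all Apoe UMIs. The same figure was 16.3% for Sftpc, with at most 4 UMIs in a cell, and 5.87% for Abca1. There were 108 cells with 1 Apoe UMI, 31 with 2 and 46 with 3 or more, and these 46 cells carried 60.9% of the Apoe UMIs.

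The 46 cells with 3 or more Apoe UMIs carried AM markers, with Chil3 in 100%, Ear2 in 97.8% and Mrc1 in 91.3%, shares much like those of all cells. By level against cells without Apoe, the intervals of 6 of the 13 AM markers included a ratio of 1. Siglecf (1.46), Ear1 (1.19) and Ear2 (1.2) were higher in the 46 cells, and Ctsk (0.488), Krt79 (0.521), Car4 (0.75) and Chil3 (0.933) were lower. They held 0 UMIs of C1qa, C1qb and Cx3cr1 and 2 of Pf4, so the interstitial list summed to 2 UMIs in 1 of 46 cells, against 83 UMIs in 60 of the 1870 cells without Apoe. In the 139 cells with 1 or 2 Apoe UMIs it had 12 UMIs in 8 cells. C1qa, C1qb and Cx3cr1 were seen in only 8, 3 and 5 of all 2055 cells, so their absence from 46 cells says little. The lung epithelium list without Epcam, which was seen in 58.1% of all cells, had 4 UMIs in 4 of the 46, against 353 UMIs in 256 of the 1870, and Sftpc itself was at 0 in the 46, where 7.22% of the cells without Apoe had a UMI. The monocyte list without Fn1 was more frequent in cells with Apoe UMIs than in those without. It was present in 10 of the 46, with 49 UMIs, against 253 UMIs in 205 of the 1870. Of the 139 cells with 1 or 2 Apoe UMIs, 31 held it, with 40 UMIs. Median depth was 3675 UMIs in the 46, 4091 in the 139 and 3233 in the 1870 cells, and its part was not tested. S100a8, with 278 UMIs in 207 of all cells, was the most abundant gene of this list. Plac8, a monocyte gene seen in 4 cells, had 14 UMIs in the 46 cells, in 4.35% of them, and 1 UMI in the cells without Apoe. The 4 cells held 19 Apoe UMIs in all, and leaving them out gave an Apoe excess variance of 18.5. The 46 cells came from all 7 clusters described below, at 1.68 to 2.59% of each.

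Apoc1, an apolipoprotein gene beside Apoe and a known LXR target, went with it. Its level was 2.72 per 10000 in the 46 cells (2.01 to 3.61) and 0.223 in cells without Apoe (0.188 to 0.262), a ratio of 12.2 (8.62 to 17.0), and cells with 1 or 2 Apoe UMIs lay between at 0.993. Abca1 stood at 2.55 per 10000 in the 46 cells, 1.32 in the middle group and 0.919 without Apoe, a ratio of 2.77 (2.00 to 3.76). Abcg1 was at 13.5, 13.4 and 11.4 per 10000, a ratio of 1.18 (1.03 to 1.35). Insig1, a sterol-sensing target of SREBP2, went the other way, at 0.793, 1.11 and 1.71. Npc2 was level across the 3 sets (5.89, 5.48 and 5.57), and the ratios of Npc1, Soat1, Lipa and Lpcat3 between the 46 cells and those without Apoe had intervals that include 1. Apoc1 and Insig1 were picked out after their values were seen, apart from the place of Insig1 among the highest genes of its list.

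Across the 2055 cells Abcg1 and Abca1 varied together more than any other pair of the 9. On the deposited scores Pearson's r was 0.20 for Abcg1 with Abca1, 0.14 for Abca1 with Apoe, and between -0.03 and 0.08 for the other 34 pairs of 36. For reference, 98% of the 4022 other genes seen in at least 10% of cells had an r with Abcg1 of -0.09 to 0.11 and with Abca1 of -0.06 to 0.07. All of these values are weak, the cells share 1 library, and in sparse counts such an r describes the data and is no finding by itself. The r of Abcg1 with Abca1 was 0.06 to 0.28 within the 7 clusters, lowest in the Rpgrip1, Slc39a1 and Abhd2 cluster. That of Abca1 with Apoe was less steady, from -0.07 in the Cxcl1, Tnf and Ereg cluster and -0.03 in the Rpgrip1 cluster to 0.28 in the MHC class II cluster.

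The cells were therefore put in order of Abcg1 level and cut into 5 groups of 411. Abcg1 itself went from 2.33 to 24.8 per 10000 by construction. Abca1 was higher in each successive group, at 0.383, 0.609, 1.04, 1.40 and 1.61 per 10000, a ratio of 4.19 between the highest and the lowest group (3.09 to 5.77). Over the 4023 genes seen in at least 10% of cells the middle 98% of this ratio ran from 0.581 to 1.72, and Abca1 lay above it. Apoe had 0.340, 0.439, 0.566, 0.901 and 0.786, a ratio of 2.31 (1.62 to 3.34). Apoc1 had a ratio of 5.13 (2.90 to 9.66) and Mylip 4.95 (2.85 to 9.13), both LXR targets singled out after their values were seen.

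Genes that SREBP2 drives ran the opposite way. Insig1 went 2.14, 1.82, 1.62, 1.49 and 1.03 per 10000 from the lowest to the highest group, and the ratios were 0.480 for Insig1 (0.387 to 0.592) and 0.448 for the synthesis enzyme Hmgcs1 (0.334 to 0.594). Idi1 and Fdps, enzymes of the same route chosen after their values were seen, had ratios of 0.276 and 0.235. A fall was not particular to these genes, since Wfdc17 had a ratio of 0.387 (0.335 to 0.445) and Car4 0.632 (0.570 to 0.701). The remaining members differed less, with 0.855 for Npc2 (0.771 to 0.948), 1.16 for Lipa, 1.18 for Soat1, 1.35 for Npc1 (1.08 to 1.68) and 0.875 for Nr1h3 (0.542 to 1.40). Lpcat3, which LXR is also known to raise, had a ratio of 1.26, with an interval that includes 1 (0.857 to 1.84). Median depth was 3162 UMIs in the lowest group and 2672 in the highest.

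**Figure D3:**
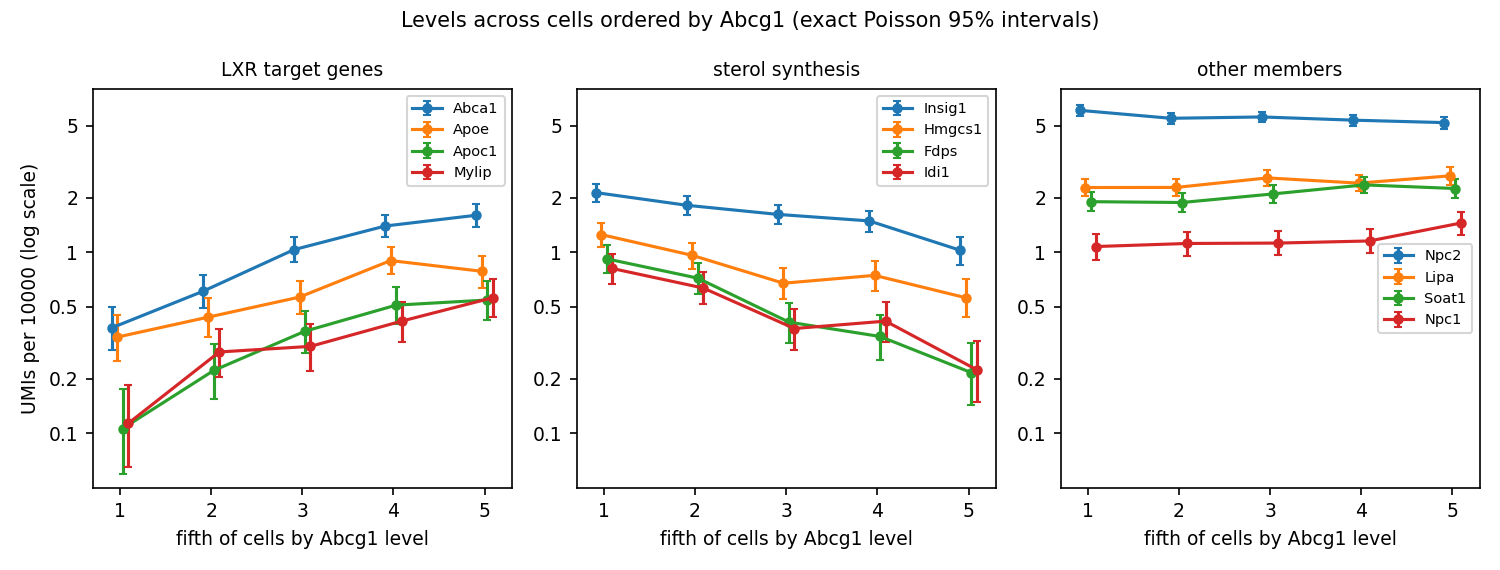
Levels in UMIs per 10000 (log axis, exact Poisson 95% intervals) in 5 groups of 411 cells ordered from low to high Abcg1. Abca1 goes from 0.383 to 1.61 and Insig1 from 2.14 to 1.03, whereas Npc2 stays between 5.22 and 6.10.

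Lists of related genes were compared in the same way. Of 10 listed LXR targets outside the members, 8 had a positive r with Abcg1, 9 with Abca1 and 10 with Apoe, where 56.8%, 52.4% and 47.0% of all genes did. The median r of the list was 0.07 with Abcg1 and 0.07 with Abca1, against 0.00 for all genes with each. This was not particular to LXR targets, since 8 of 10 endolysosomal genes outside the members were also positive with Abcg1 (median r 0.05), led by Psap (0.16) and with Ctsd at 0.12, and 7 of 8 AM lipid genes were positive with Abca1 and with Apoe. Lpl, the lipoprotein lipase, was the highest gene of this list at 18.3 per 10000 and had an r of 0.12 with Abcg1 and 0.13 with Abca1. Of 12 sterol synthesis genes, 11 had a negative r with each of Abcg1, Abca1 and Apoe, where 43.2%, 47.6% and 53.0% of all genes did, and the exception was Scap, which escorts SREBP. The median r of that list was -0.11 with Abcg1 and -0.08 with Abca1.

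Measures of RNA content moved with Abcg1. Its highest r were with Cd44 (0.22), a surface receptor for hyaluronan, Abca1 (0.20) and the nuclear RNA Malat1 (0.19), and its lowest with the iron storage gene Fth1 (-0.20). Abcg1 also had an r of -0.15 with the ribosomal protein share of the cell, whose median went from 14.4% in the lowest Abcg1 group to 12.5% in the highest. With Malat1, Fth1 and the ribosomal and mitochondrial shares held fixed, the r of Abcg1 with Abca1 was 0.16. That of Abca1 with Apoe was 0.12. With the same measures held, again 11 of 12 sterol synthesis genes were negative with Abcg1, where 47.1% of all genes were. The median r of that list was then -0.10.

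**Figure D4:**
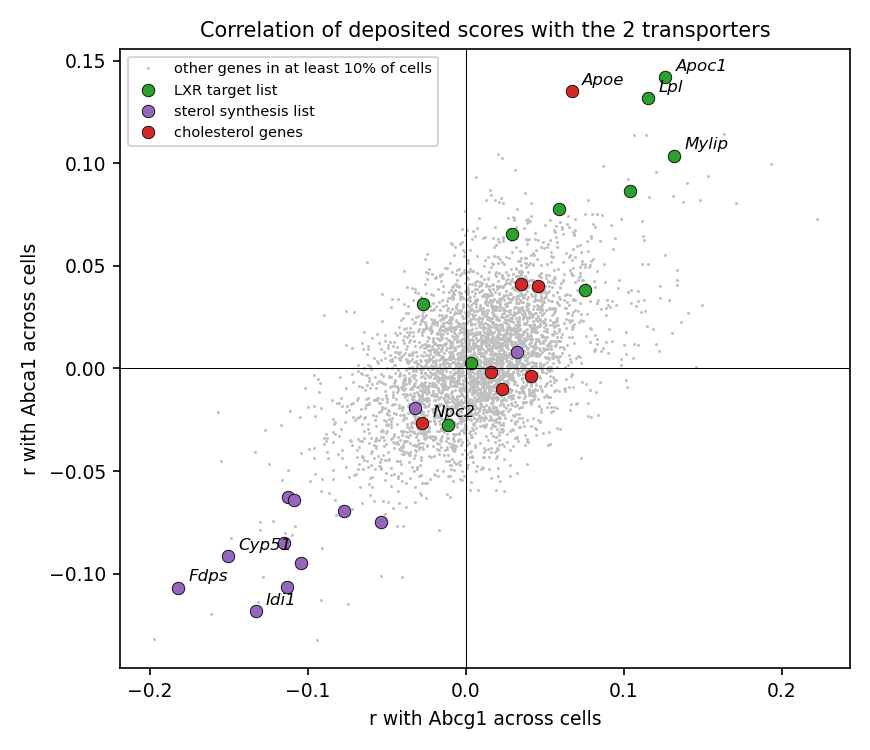
Pearson's r across 2055 cells with Abcg1 (horizontal) and with Abca1 (vertical) for genes seen in at least 10% of cells and all listed genes of the sets shown. Of the LXR targets (green), Apoc1, Lpl and Mylip sit at the upper right, while others such as Srebf1 (-0.01 and -0.03) and Smpdl3a (0.00 and 0.00) lie near 0. Sterol synthesis genes (purple) such as Fdps, Idi1 and Cyp51 sit at the lower left, and Npc2 lies near 0.

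For the lysosomal members seen in at least 50% of cells, the genes most like them were as follows. Npc2 was most like Chil3 (r = 0.12), a secreted chitinase-like protein, Lyz2 (0.11), which encodes lysozyme, and Itm2b (0.10), and least like Snx12 (-0.08). Lipa was most like mt-Atp6 (0.11), Laptm5 (0.10) and the saposin precursor Psap (0.10), which had a higher r with Abcg1, and least like Rpl36 (-0.12). The Lipa level was 1.95 per 10000 in the quartile of cells with the lowest mitochondrial share (1.74 to 2.17) and 2.88 in the highest (2.62 to 3.15). For Abcg1 the same quartiles gave 11.2 and 13.7, and by UMI total its level went from 14.5 in the shallowest quartile to 10.8 in the deepest, so Abcg1 was higher in shallow cells; the part of cell quality in this was not tested.

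Cells were clustered without the members or the related lipid genes, which gave 7 clusters. In each of them Chil3 was seen in 100% of cells. Abcg1 was highest in the cluster led by Txnip, Clec2d and Tsc22d3 (232 cells) at 14.7 per 10000 (13.9 to 15.6) and lowest in the cycling cluster led by Hist1h2ap, Top2a and 2810417H13Rik (110 cells) at 8.01 (7.23 to 8.85). The ratio of the cycling cluster to all other cells was 0.674 (0.607 to 0.747), percentile 7.58 of the same ratio over 4023 genes. In the cluster led by Cxcl1, Tnf and Ereg (119 cells), with 5 chemokine and cytokine genes among its 10 leading genes, Abcg1 stood at 8.88, a ratio of 0.753 (0.678 to 0.834) and percentile 14.5. In the MHC class II cluster led by H2-Eb1, H2-Aa and H2-Ab1 (177 cells) it stood at 10.1, a ratio of 0.854 and percentile 21.5. The cluster led by Rpgrip1, Slc39a1 and Abhd2 (215 cells) came close to the Txnip cluster, with Abcg1 at 13.8 (12.9 to 14.7). Its ratio was 1.21 (1.13 to 1.30), percentile 91.9. Median UMIs per cell were 2888.5 in the Txnip, 2984 in the Rpgrip1, 3463 in the Cxcl1 and 4171.5 in the cycling cluster. Abcg1 was thus higher in the shallower of these clusters, and the part of depth in their order was not tested.

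Abca1 followed Abcg1 in some clusters but not in all. It was highest in the cluster led by Hspa1b, Rhob and Nr4a2 (643 cells) at 1.30 per 10000 (1.15 to 1.46), a ratio of 1.53 (1.31 to 1.78) and percentile 99.1 of genes. Abcg1 was also raised there, with a ratio of 1.16 (1.11 to 1.21). Both were lower in the cluster led by Cd63, Wfdc17 and Spg21, at 0.853 for Abcg1 and 0.834 (0.698 to 0.991) for Abca1. In the cycling, Cxcl1 and MHC class II clusters the Abca1 ratios were 0.896, 0.832 and 0.826, with intervals that include 1. The Rpgrip1 cluster, where Abcg1 was also high, had an Abca1 ratio of 0.913 (0.690 to 1.19). Abca1 was lowest in the Txnip cluster, where Abcg1 was highest, at 0.757 per 10000 (0.572 to 0.983). The Hspa1b cluster held 3 immediate-early and heat shock genes, which are known to respond to tissue digestion, among its 10 leading genes. Abca1 had an r of 0.08 with that list across all cells, and the part of this response in the Abca1 level was not tested. With the list held fixed, the r of Abcg1 with Abca1 was 0.20, a value that does not bear on the Abca1 level of the cluster. Apoe was lowest in the Cxcl1 cluster, with 12 UMIs at 0.278 per 10000 (0.143 to 0.485), a ratio of 0.446 (0.228 to 0.787). Its highest level, 0.853 in the cycling cluster, rests on the cell with 27 of the 41 Apoe UMIs found there.

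Npc2 and Soat1 were the most even members across clusters. Their highest and lowest clusters differed 1.21-fold (1.03 to 1.42) for Npc2 and 1.19-fold (0.917 to 1.55) for Soat1, where the median gene seen in at least 10% of cells differed 1.58-fold. Lipa was lowest in the cycling cluster at 1.96 per 10000 and highest in the cluster led by Cd63, Wfdc17 and Spg21 (559 cells) at 2.70 (2.48 to 2.94). Npc1 in the cycling cluster had a ratio of 0.728 (0.521 to 0.993) to other cells. The counts of Nr1h3 and Lpcat3 were too low to order their clusters.

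**Figure D5:**
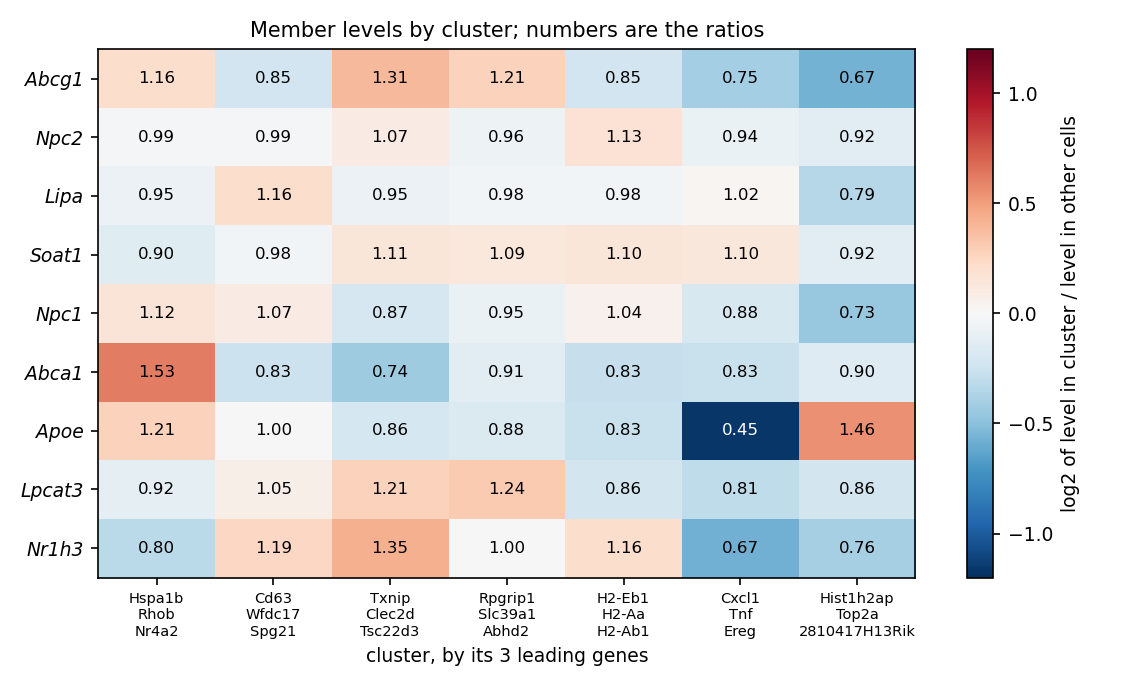
Ratio of the level in each of 7 clusters to the level in all other cells for the 9 genes, printed in each cell and coloured by its log2. Abcg1 is at 0.67 in the cycling cluster and 1.31 in the Txnip cluster, Abca1 at 1.53 in the Hspa1b cluster, and Npc2 stays between 0.92 and 1.13.

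Other genes of these routes were read from lists. Of 13 endolysosomal genes 7 were seen in at least 50% of cells, among them Psap at 24.0 per 10000, the protease Ctsd at 22.5 and Lamp1 at 6.04, compared with 6.04% of all genes. Of 13 listed sterol transfer and storage genes, Plin2, a lipid droplet coat protein (9.83), and Nceh1 (3.90) passed that share, while Soat1 at 49.6% fell just under it. Of the 12 sterol synthesis genes 6 were seen in at least 10% of cells, as 33.8% of all genes were, and 0 in 50%, led by Insig1 (1.64), Hmgcs1 (0.845) and Cyp51 (0.692). Of 9 nuclear receptors and partners 3 were seen in at least 10% of cells, a share close to that of all genes, with Pparg at 1.17, Ncor1 at 1.01 and Rxra at 0.581 per 10000. Among other transporters Abcd2 led at 0.734, below Abca1, and among scavenger receptors Olr1 (4.80), Cd36 (4.27) and Marco (3.19) were highest. The lipid genes known in AMs were led by Lpl, Fabp1 (14.9) and Plin2.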

How the data were processed

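AMs of 1 wild-type mouse were profiled as single cells; the authors counted UMIs with Cell Ranger on mm10 and deposited, after filtering cells and genes with Seurat, the natural log of 1 plus UMIs per 10000 and a scaled score, regressed on UMIs per cell and mitochondrial content and capped at 10. UMI counts were recovered from the deposited natural log values, whole for 100% of values within 0.01. The paper states that cells over 5% mitochondrial content and ribosomal protein genes were removed. In the deposited values 384 cells were over 5%, and ribosomal protein genes such as Rpl36 were present. All deposited cells were used. Levels are summed UMIs per 10000 with exact Poisson intervals, and shares have Clopper-Pearson intervals. Excess variance is a moment estimate, checked on simulated counts. Clusters used the scores of 500 variable genes without the lipid lists, 15 components, 30 neighbours and a resolution of 0.8 (Seurat 5.3.0, R 4.3.3); other steps used Python 3.11.15, numpy 2.4.6, scipy 1.17.1 and pandas 2.3.3. A constant of 0.05 per 10000 was added for percentiles and leading genes. Doublets were not called; the most genes in a cell was 2495.

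Members and lists were chosen with earlier results of these data known. Genes named were the 9 members; the 3 of highest and 1 of lowest r (of genes in at least 10% of cells) for members seen in at least 50% of cells; the 3 of highest level in each list; cluster markers and the 3 leading genes of each cluster (in at least 25% of its cells). Others are said to be chosen after their values were seen. Some listed genes are not reported here and were left out of the list counts. Alternatives covered thinning to 1801 UMIs, cell filters, scales of correlation and clustering settings.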

Additional observations from a re-analysis of the deposited data

How the results depend on the processing

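No paired analysis was possible because there is 1 library. Shares of cells depend on depth: thinned to 1801 UMIs (1850 cells, with 205 shallower cells left out), they were 82.9% for Abcg1, 60.5% for Npc2, 34.4% for Lipa, 31.8% for Soat1, 19.3% for Npc1, 15.4% for Abca1, 7.78% for Lpcat3, 5.41% for Apoe and 4.59% for Nr1h3, and the excess variance was 0.114 for Npc2, 0.0146 for Npc1, 0.0911 for Lipa and 0.298 for Lpcat3. In cells with at most 5% mitochondrial content it was 0.231 for Nr1h3 and -0.0237 for Lpcat3. Without the 50 genes of highest level in the totals, levels per 10000 were 16.1 for Abcg1, 7.72 for Npc2, 3.38 for Lipa, 2.91 for Soat1, 1.63 for Npc1, 1.37 for Abca1, 0.835 for Apoe, 0.664 for Lpcat3 and 0.374 for Nr1h3. The Abcg1 level was 12.2 as a mean over cells, 11.2 in cells with at most 5% mitochondrial content and 11.4 in cells with 1000 to 2000 genes, where its share was 93.6%. As a ratio of mean log values, Abcg1 in the cluster against other cells was 0.853 for the cycling, 0.842 for the Cxcl1 and 0.942 for the MHC class II cluster, and Apoe in the cycling cluster turned to 0.991. Under the planned settings and holding RNA-content measures or the immediate-early list fixed, r ranged from 0.16 to 0.21 for Abcg1 with Abca1, 0.12 to 0.16 for Abca1 with Apoe and 0.05 to 0.08 for Abcg1 with Apoe, and from -0.06 to 0.12 over the other 33 pairs. Without the cell of most Apoe UMIs the excess variance of Apoe was 13.8. That setting, the cells without Plac8, the fixed measures and the grouping of cells by Abcg1 or Apoe were chosen after seeing the data.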
